A study of Mus musculus with 4 samples.

Results

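Mouse chromosome 14 carried 8978 of the 170898 accessible regions (5.25%) found in 4 ATAC-seq libraries of the embryonic stem cell line 2TS22C. ATAC-seq marks open chromatin as places where a transposase inserted adapters, and the deposited values are peaks called in each library. The regions were chosen by position: every peak on chromosome 14 in any of the 4 lists, merged where peaks overlapped by at least 1 bp. The chromosome itself was chosen for a difference between the groups, namely its calls, its fold enrichment and its summit strength in SOX17FNV against SOX2 libraries. All values below are therefore descriptions, and none is a test.

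Both groups share the 2TS22C background, silenced endogenous Sox2 and treatment with DOX, and both were grown in 2i serum/LIF medium. The SOX17FNV group was transduced with a lentivirus for SOX17FNV, an engineered SOX17, and the SOX2 group with a lentivirus for SOX2. Each group had 2 libraries that the titles call biological replicates, and the labels do not say whether these came from separately derived cell lines. The spread given is the spread between these libraries, and no exact permutation test of 2 against 2 libraries can give a p below 0.333.

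SOX2 and SOX17 are transcription factors that bind DNA through an HMG box, SOX2 as part of the pluripotency network with OCT4 and SOX17 in the endoderm. SOX2 binds an AACAAT-like core, often next to the octamer bound by OCT4. The number of ATAC-seq fragments from a site depends both on how open its chromatin is and on how many copies of it the cells carry. Gains of whole chromosomes are known to arise in cultured mouse embryonic stem cells. The number of chromosome 14 copies was not measured in these files.

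The following 4 promoters of the chromosome show the kinds of region described below. They are RefSeq windows of GRCm38.p6, whose coordinates are those of mm10, from 250 bases before to 50 bases after a gene's start. Of 1358 such windows on the chromosome, 598 overlapped a region, 501 overlapped a region shared by all 4 libraries, 14 a region called only in both SOX17FNV libraries and 7 a region called only in both SOX2 libraries. Over all 32851 windows of the table these 2 classes held 99 and 167, and 52.9% of all windows overlapped a region, against 44.0% on chromosome 14. Each sequence runs 5′ to 3′ in the direction of its gene. Capitals mark the SOX core, AACAAT or its reverse ATTGTT, and the octamer ATGCAAAT or its reverse ATTTGCAT. Hs6st3 (chr14:119138015-119138314, plus strand) and Psmd6 (chr14:14120896-14121195, minus strand) are shown because their shared promoter regions were among the regions higher in SOX17FNV libraries. Cacna1d (chr14:30491107-30491406, minus strand) is shown as a promoter called only in SOX17FNV libraries, and Otx2 (chr14:48662685-48662984, minus strand) as one called only in SOX2 libraries. This Otx2 window lies inside the gene span (chr14:48656781-48667644). Of the 3 regions assigned to Otx2 near a gene end, 2 were shared by all 4 libraries.
Hs6st3: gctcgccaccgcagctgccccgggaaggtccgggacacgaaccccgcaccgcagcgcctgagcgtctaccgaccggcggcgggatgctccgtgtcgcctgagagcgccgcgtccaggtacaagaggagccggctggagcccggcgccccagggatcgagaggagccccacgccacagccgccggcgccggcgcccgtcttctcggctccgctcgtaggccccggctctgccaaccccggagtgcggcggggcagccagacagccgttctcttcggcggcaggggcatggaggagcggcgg
Psmd6: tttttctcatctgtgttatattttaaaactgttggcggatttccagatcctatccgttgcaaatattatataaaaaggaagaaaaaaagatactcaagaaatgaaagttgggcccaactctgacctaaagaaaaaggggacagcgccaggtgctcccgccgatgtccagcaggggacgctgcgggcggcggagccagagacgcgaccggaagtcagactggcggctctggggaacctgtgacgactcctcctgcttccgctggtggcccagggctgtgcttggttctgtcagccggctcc
Cacna1d: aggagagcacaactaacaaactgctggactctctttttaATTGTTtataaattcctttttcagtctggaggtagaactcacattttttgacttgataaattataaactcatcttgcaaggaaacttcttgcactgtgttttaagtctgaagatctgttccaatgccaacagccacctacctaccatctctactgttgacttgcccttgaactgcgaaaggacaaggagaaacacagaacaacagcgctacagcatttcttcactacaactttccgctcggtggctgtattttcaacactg
Otx2: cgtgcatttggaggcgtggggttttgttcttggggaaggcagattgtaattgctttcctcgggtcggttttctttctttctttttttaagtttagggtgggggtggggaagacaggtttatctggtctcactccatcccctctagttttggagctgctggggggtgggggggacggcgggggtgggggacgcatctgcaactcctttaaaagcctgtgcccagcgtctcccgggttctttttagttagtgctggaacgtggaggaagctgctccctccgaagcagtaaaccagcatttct
Neither motif lies in the Hs6st3, Psmd6 and Otx2 windows, and the Cacna1d window holds 1 SOX core.

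Psmd6 encodes a subunit of the proteasome lid. Its promoter region had a summit pileup, the number of sequenced fragments or reads stacked at the highest point, of 67 and 56 in the SOX17FNV libraries, against 44 and 35 in the SOX2 libraries. Hs6st3 encodes a heparan sulfate 6-O-sulfotransferase, and its promoter region had pileups of 71 and 56 against 47 and 36. At both promoters the groups did not overlap, and after scaling each library to its other autosomes the ratio of SOX17FNV to SOX2 was 1.74 at Psmd6 and 1.71 at Hs6st3. Cacna1d, which encodes an L-type calcium channel subunit, had pileups of 18 and 14 in the SOX17FNV libraries at the window shown. Otx2, a homeobox factor of early embryo and forebrain, had pileups of 25 and 24 in the SOX2 libraries at the window shown. A missing call means that no peak passed the caller's threshold there, and the lowest pileup in a list was 10 to 13.

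The SOX core occurred in 11.5% of the chromosome 14 windows, in 10.5% of those of the other autosomes and in 10.7% of all windows. The octamer occurred in 1.55% of the chromosome 14 windows and in 1.74% of all windows. Shared promoter regions on chromosome 14 had a median SOX17FNV over SOX2 pileup ratio of 1.26 where the window held a SOX core (28 windows) and of 1.27 where it did not. Elsewhere on the autosomes those medians were 1.04 and 1.03. With and without the octamer they were 1.45 (4 windows only) and 1.27 on chromosome 14, and 1.04 and 1.03 elsewhere. The higher ratio thus stood at promoters with and without these letters, and a match to 6 letters is a description and not a binding site.

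The 4 lists held 92851 to 123214 peaks. Read totals were not used. The lowest background in a list rises with its depth, and it stood at 3.91 and 3.27 in the SOX17FNV libraries, against 4.17 and 5.02 in the SOX2 libraries. All 6 embryonic stem cell marker genes (Pou5f1, Nanog, Sall4, Zfp42, Esrrb and Klf4) had a peak near a gene end in every library. Of 5 fibroblast markers, Col1a1, Col1a2 and Thy1 had such a peak in every library, while Col3a1 and Postn had it in none. A peak near a gene end does not show that the gene is expressed, and the marker calls did not differ between libraries.

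Chromosome 14 held more peaks in SOX17FNV libraries and fewer in SOX2 libraries. The SOX17FNV libraries had 6907 and 5561 peaks there, and the SOX2 libraries 4798 and 3784. As a share of autosomal peaks these were 5.86% (exact binomial 95% interval 5.73% to 5.998%) and 6.12% (5.97% to 6.28%) against 3.997% (3.89% to 4.11%) and 4.02% (3.90% to 4.15%). The groups did not overlap, and the libraries of a group differed by far less than the groups. The intervals cover counting error only.

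Of the 8978 regions, 75.8% and 59.6% were called in the SOX17FNV libraries, against 52.3% and 40.1% in the SOX2 libraries. On the other autosomes the order was the other way for libraries of the same number, with 68.9% and 51.5% against 71.8% and 54.8%. The SOX17FNV-only class, called in both SOX17FNV libraries and neither SOX2 library, had 777 members on chromosome 14, or 8.65% (8.08% to 9.26%) of its regions, while 3.06% of all regions of the genome fell in that class. The SOX2-only class, defined the other way round, had 141 members or 1.57% (1.32% to 1.85%), while 4.09% of all regions fell in it. Since the chromosome was chosen on this contrast, these counts describe it and support nothing further. Chromosome 14 had more SOX17FNV-only than SOX2-only regions, and the rest of the genome had fewer, 4451 against 6853.

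No other autosome came near these shares. SOX17FNV-only regions were 2.53% (chromosome 3) to 3.13% (chromosome 5) of the regions of the other 18 autosomes, and SOX2-only regions 3.35% (chromosome 17) to 5.39% (chromosome 6). Chromosome 14 alone held 14.9% of all 5228 SOX17FNV-only regions and 2.02% of all 6994 SOX2-only regions. Regions called in all 4 libraries numbered 2520 or 28.1% on chromosome 14, while 33.8% of all regions were shared.

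Calls made in a single library followed the same order. Regions called only in SOX17FNV library 1 were 20.5% on chromosome 14 and 11.1% on the other autosomes, and those only in SOX17FNV library 2 were 11.5% and 4.55%. Regions called only in SOX2 library 1 were 5.87% against 12.9%, and only in SOX2 library 2 were 3.33% against 6.34%. Regions missed by SOX2 library 2 alone were 7.40% of all regions on chromosome 14 and 5.51% elsewhere. Those missed by SOX17FNV library 2 alone were 2.84% and 5.57%. The class sizes depended on how many libraries had to make or miss the call. With 1 library left out, SOX17FNV-only regions on chromosome 14 numbered 1805 (without SOX17FNV library 1), 2616 (without SOX17FNV library 2), 1441 (without SOX2 library 1) and 959 (without SOX2 library 2). SOX2-only regions then numbered 396, 180, 440 and 668. A group left with 1 library needed only 1 call or 1 miss, so the order of these counts depends partly on the rule. The SOX17FNV-only share of chromosome 14 was then 3.07, 2.26, 1.79 and 2.55 times that of the other autosomes.

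**Figure D1:**
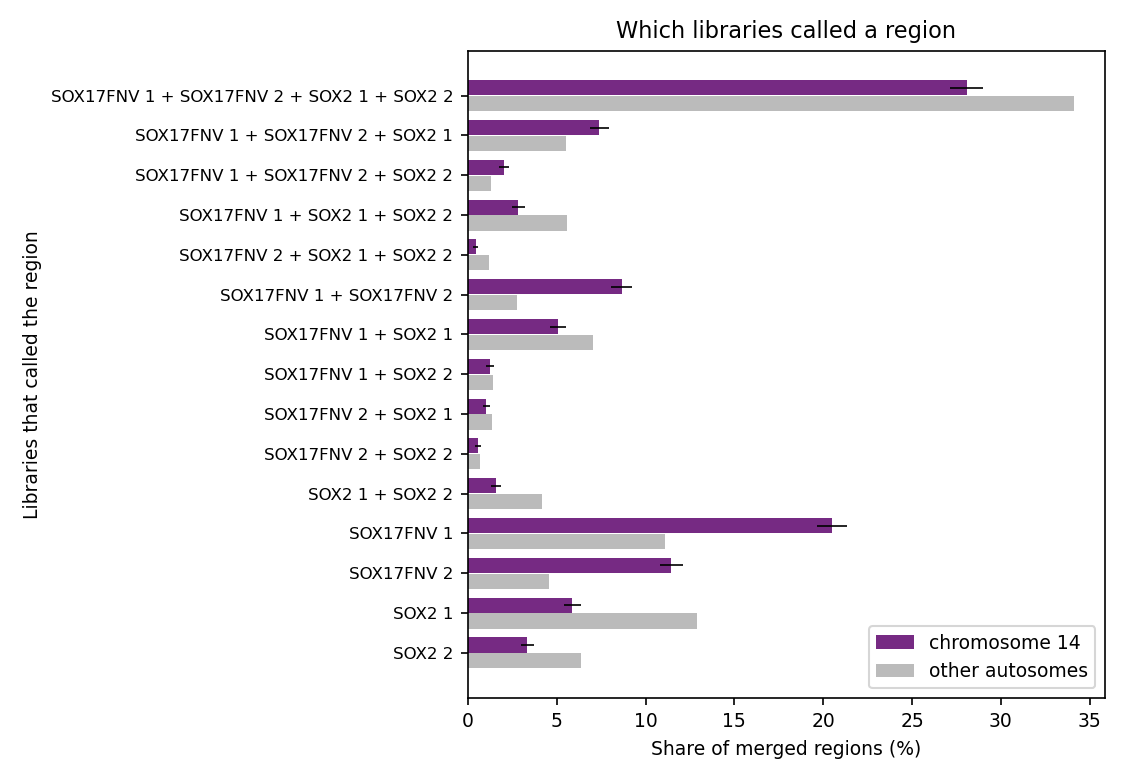
Share of merged regions (x axis, %) by the set of libraries that called them (y axis), for chromosome 14 with exact binomial 95% intervals and for the other autosomes. The bar for both SOX17FNV libraries alone reaches 8.65% on chromosome 14 and 2.77% elsewhere, and that for both SOX2 libraries alone 1.57% and 4.15%.

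The group-specific regions were mostly weak peaks. SOX17FNV-only regions on chromosome 14 had median pileups of 17 and 15 in the SOX17FNV libraries, against 37.5 and 28 for its shared regions in the same libraries. SOX2-only regions there had median pileups of 20 and 19, against 31 and 25 for shared regions. The same held on the other autosomes, where SOX17FNV-only regions had medians of 18 and 15. The medians lay a few units above the lowest pileups that any list contained, so most of these regions lay near the calling threshold.

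Regions called in all 4 libraries do not depend on a missed call, and they differed in height. Their median pileup on chromosome 14 was 37.5 and 28 in the SOX17FNV libraries, against 31 and 25 in the SOX2 libraries. Elsewhere on the autosomes it was 33 and 24, and 35 and 28. The SOX17FNV libraries were thus the higher in each numbered pair on chromosome 14 and the lower elsewhere. Divided by the other autosomes of the same library, chromosome 14 stood at 1.14 and 1.17 in the SOX17FNV libraries, a mean of 1.15 ± 0.021 (SD, n = 2). In the SOX2 libraries it stood at 0.886 and 0.893, a mean of 0.889 ± 0.0051 (SD, n = 2). The ratio of the means was 1.29, and the 4 ratios between a SOX17FNV and a SOX2 library ran from 1.27 to 1.32. Libraries of the same group differed by a factor of 0.974 (SOX17FNV) and 0.992 (SOX2), closer to 1 than any ratio between the groups.

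The same ratio for the other autosomes ran from 0.915 (chromosome 6) to 1.05 (chromosome 16). Chromosome 14 had the lowest relative pileup of the 19 autosomes in both SOX2 libraries and the highest in SOX17FNV library 1. In SOX17FNV library 2 it tied with chromosome 8 at 1.17, but chromosome 8 was high in every library, at 1.06 and 1.11 in the SOX2 libraries. The departure from the other autosomes had opposite signs in the 2 groups, and a library of the line before transduction was not analysed here.

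The local background differed more than the peaks did. The background is the pileup that the caller assumed around a summit, recovered from the deposited fold and p-value, and it is not a measure of open chromatin alone. At shared regions of chromosome 14 its median was 7.58 and 6.17 in the SOX17FNV libraries, against 5.79 and 5.85 in the SOX2 libraries. Relative to the other autosomes it was 1.21 and 1.28 (mean 1.25 ± 0.049, SD, n = 2) against 0.843 and 0.841 (mean 0.842 ± 0.0010, SD, n = 2), a ratio of 1.48. The other autosomes ran from 0.913 (chromosome 6) to 1.03 (chromosome 8) on this ratio. The background of a summit cannot fall below its list's genome-wide value, and 29.8% and 32.0% of chromosome 14 summits sat at that floor in the SOX2 libraries against 20.9% and 17.5% in the SOX17FNV libraries. Elsewhere 21.6% to 24.1% sat there.

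Fold enrichment, the deposited ratio of pileup to local background, did not follow the pileup. Its median at shared regions of chromosome 14 was 4.39 and 3.99 in the SOX17FNV libraries, against 4.35 and 3.48 in the SOX2 libraries. Relative to the other autosomes it was 0.984 and 0.960 against 1.02 and 0.996, a ratio of 0.965. This was the lowest of the 19 autosomes, though close to the next (chromosome 13 at 0.970), and the others reached 1.02 (chromosome 5). Chromosome 14 was thus higher in SOX17FNV libraries in pileup and in background, and slightly lower in the ratio of the 2. The departure of this fold enrichment ratio from 1 was small, and without SOX2 library 1 the ratio was 0.992.

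**Figure D2:**
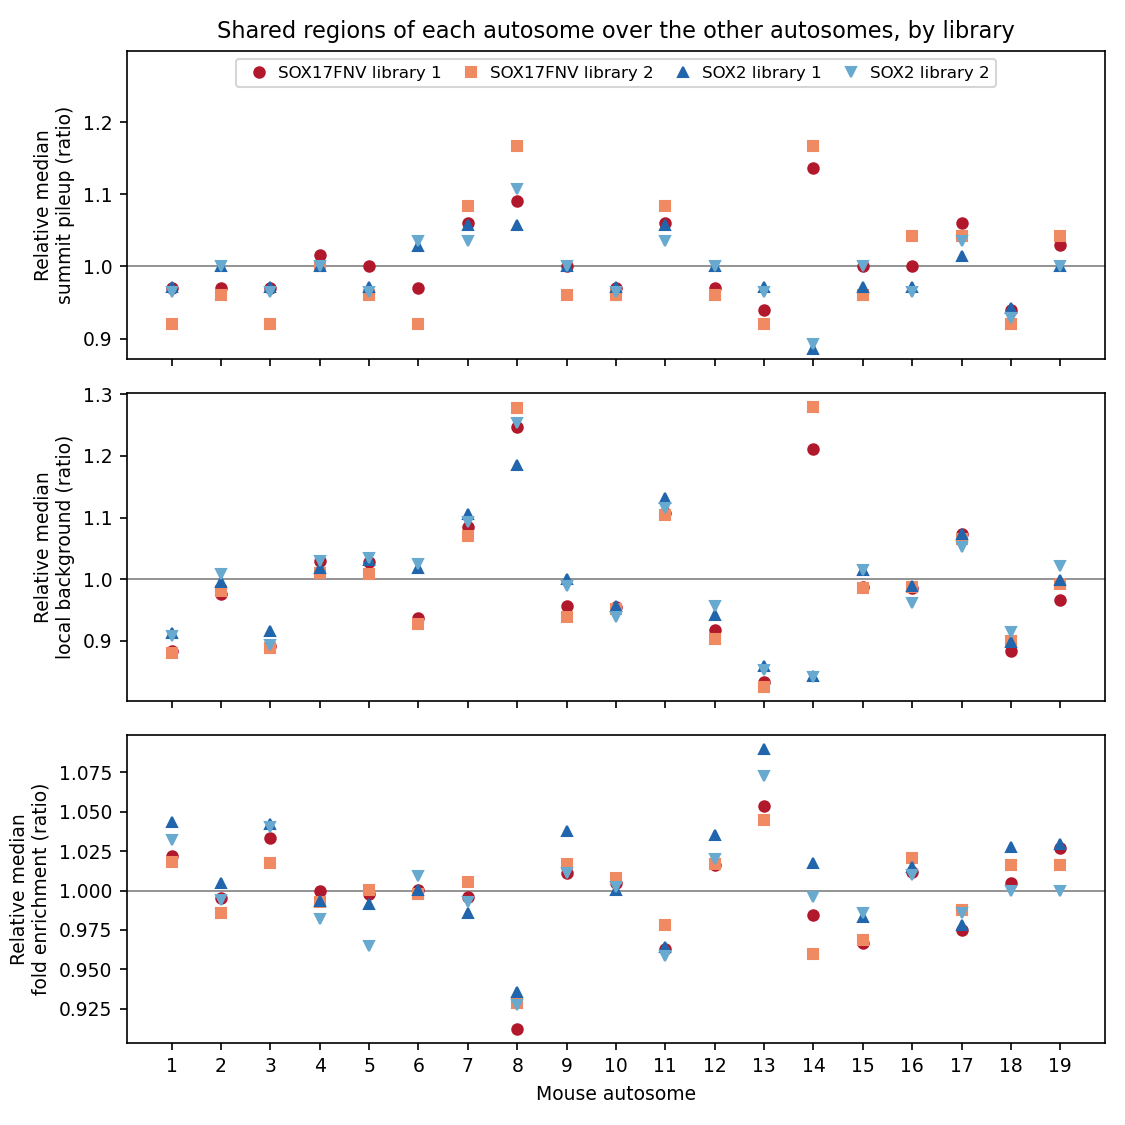
Median summit pileup, local background and fold enrichment (y axes, ratio to the other autosomes of the same library) of shared regions on each of the 19 autosomes (x axis), with 1 symbol per library. On chromosome 14 the SOX17FNV symbols lie at 1.14 and 1.17 and the SOX2 symbols at 0.886 and 0.893 for the pileup, and the groups also part for the background, while chromosome 8 is high in the pileup of all 4 libraries.

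Region by region, 1610 of the 2520 shared regions (63.9%) had both SOX17FNV relative pileups above both SOX2 relative pileups, while 24.1% of all shared regions did. The opposite order held for 117 (4.64%), while 18.4% of all shared regions had it. The median log2 ratio of SOX17FNV to SOX2 was 0.37, and 87.5% of the shared regions lay above 0. On the other autosomes that share was 41.4% (chromosome 6) to 61.6% (chromosome 8). The shift was therefore spread over most shared regions of the chromosome and was not carried by a few.

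Along the chromosome, the higher pileup was found in every bin with enough shared regions. In bins of 5 Mb, 23 of 25 held at least 20 shared regions, and in all 23 both SOX17FNV libraries lay above both SOX2 libraries. Their ratio had a median of 1.31. On the other autosomes, 119 of 448 such bins had this order, and their median ratio was 1.003. None of the 448 exceeded the chromosome 14 median (highest 1.21), but 130 exceeded the lowest chromosome 14 bin, at 1.04. SOX17FNV-only regions outnumbered SOX2-only regions in 23 of 23 bins of chromosome 14 and in 96 of 448 elsewhere. Of the 2 thin bins, that from 0 to 5 Mb had 2 shared regions with overlapping groups, and 0 SOX17FNV-only against 2 SOX2-only regions. The thin bin from 80 to 85 Mb had 19 shared regions without overlap of the groups, and 12 against 0.

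The size of the difference was not even. It was smallest between 35 and 40 Mb, at 1.04, with relative pileups of 0.879 and 0.833 in the SOX17FNV libraries, against 0.829 and 0.821 in the SOX2 libraries. The groups there were separated by less than the SOX17FNV libraries were from each other. The bins starting at 40, 45 and 50 Mb had ratios of 1.16, 1.20 and 1.19, and the bin starting at 70 Mb had 1.09. The background ratio also had its lowest values at 35 and 40 Mb, 1.09 and 1.08. In both of these bins the median background of SOX2 library 2 was at the floor, so it could not go lower.

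The highest pileup ratio, 1.65, was in the bin from 110 to 115 Mb, with 1.18 and 1.08 in the SOX17FNV libraries, against 0.657 and 0.714 in the SOX2 libraries. It rests on 21 shared regions, next to the minimum of 20, and the median background of both SOX2 libraries there was at the floor. This bin holds the Slitrk5 and Slitrk6 genes and had no SOX2-only region but 29 SOX17FNV-only ones, the largest SOX17FNV-only share of a bin (22.1%). The bins with most shared regions gave 1.40 (30 to 35 Mb, 222 regions), 1.23 (60 to 65 Mb, 188 regions) and 1.40 (75 to 80 Mb, 188 regions). The smallest share of SOX17FNV-only regions was 3.94%, in the bin from 40 to 45 Mb, which also had the largest SOX2-only share of the 23 bins (3.45%).

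**Figure D3:**
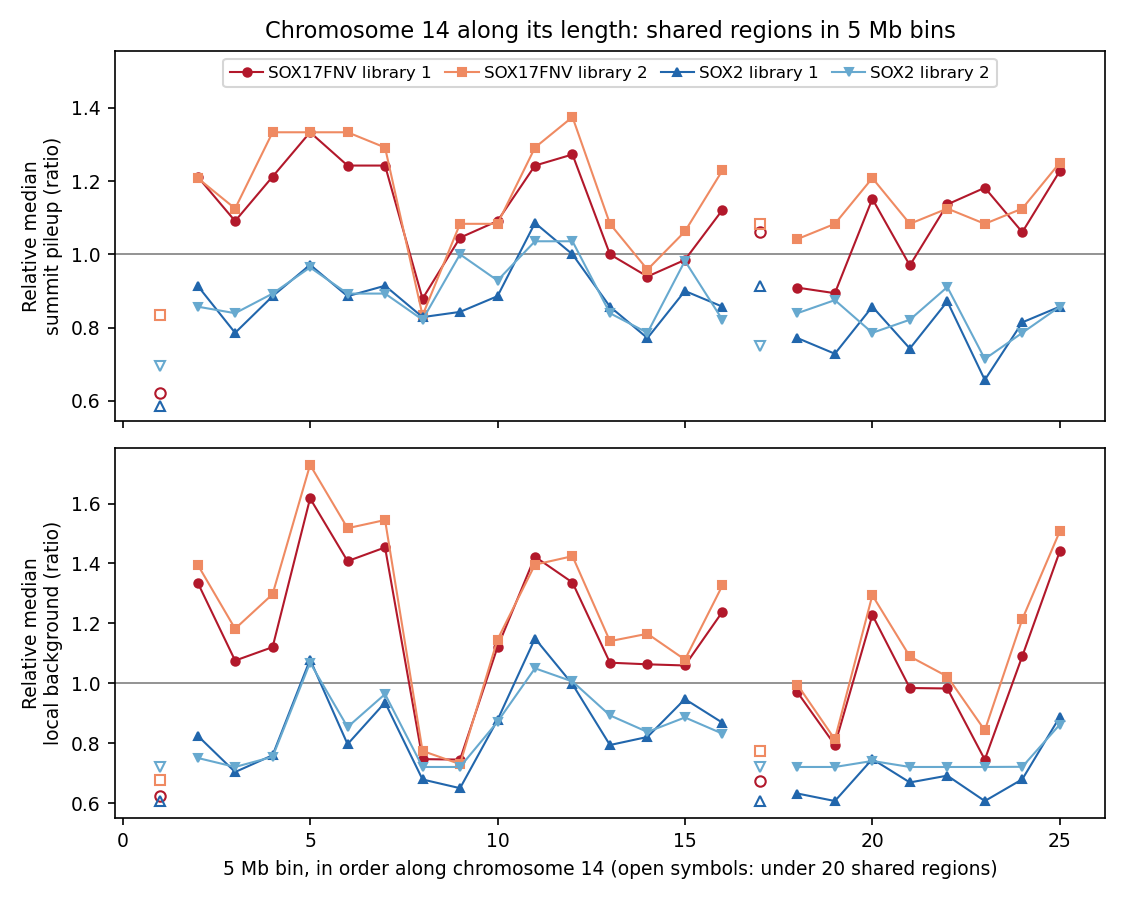
Relative median pileup and local background (y axes, ratio to the other autosomes of the same library) of shared regions in successive 5 Mb bins of chromosome 14 (x axis, bin order), with open symbols for the 2 bins under 20 shared regions. The SOX17FNV symbols lie above the SOX2 symbols for the pileup in all 23 other bins, and the libraries come closest in the bin with a ratio of 1.04.

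The difference was of similar size at every distance from genes. Regions within 1 kb of the end of a protein-coding gene had a median pileup ratio of 1.27 (510 shared regions), those inside genes 1.31 (1058), those outside but within 50 kb 1.31 (596) and those farther away 1.31 (356). On the other autosomes these medians lay between 0.985 and 1.03. SOX17FNV-only regions made up 3.94%, 8.25%, 8.35% and 12.0% of these classes, against 1.14%, 2.95%, 3.18% and 2.96% on the other autosomes. Chromosome 14 had fewer regions near gene ends (8.48%) than the other autosomes (12.99%). When shared regions were split into 4 classes by strength, the median ratio was 1.21, 1.32, 1.35 and 1.29 from the weakest to the strongest class.

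By gene, 709 of the 851 protein-coding genes of the chromosome in the reference table were the nearest gene within 50 kb of at least 1 region. Of these, 266 had a SOX17FNV-only region and 96 a SOX2-only region. SOX17FNV-only regions outnumbered SOX2-only regions at 237 genes, and the reverse held at 45. These counts depended on the libraries: without SOX2 library 2 they were 202 and 180, nearly even, without SOX17FNV library 1 they were 341 and 80, without SOX17FNV library 2 466 and 19, and without SOX2 library 1 318 and 82. Among the 601 genes with a shared region, 571 had a median pileup ratio above 1. Among the 140 genes with at least 5 shared regions, 136 did, with a range of 0.677 to 1.79 over the 140. No gene counts for the other autosomes stand beside these. By region, the SOX17FNV-only share was 8.65% here and 3.06% over all regions, and the SOX2-only share 1.57% and 4.09%. Of shared regions, 87.5% had a ratio above 1 here, and 41.4% to 61.6% on the other autosomes.

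The 10 genes with most SOX17FNV-only over SOX2-only regions held 99 of the 777 SOX17FNV-only regions, and all but Ipo5 (51.2 kb) span more than 353 kb. Fhit (chr14:9550092-11162061) encodes a diadenosine triphosphate hydrolase and spans a common fragile site. It had 77 regions, of which the SOX17FNV libraries called 58 and 58 and the SOX2 libraries 23 and 20, with 16 SOX17FNV-only and 0 SOX2-only regions. Enox1, a cell surface oxidase gene, had 51 and 50 against 23 and 22 of its 75 regions called. Its 16 shared regions had a median pileup ratio of 1.54, and 15 of them lay above 1. Thrb, the thyroid hormone receptor beta gene, had 23 and 22 against 10 and 5 calls among 35 regions.

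Heparan sulfate genes were among these 10. Gpc5 and Gpc6 encode glypicans, cell surface proteins that carry heparan sulfate chains, and lie beside each other on the chromosome. Gpc6 had 50 and 46 calls in the SOX17FNV libraries, against 22 and 17 in the SOX2 libraries, and Gpc5 had 27 and 29 against 11 and 13. Hs6st3, whose promoter is printed above, had 32 and 30 against 10 and 8. Of the 157 regions of these 3 genes, 29 (18.5%) were SOX17FNV-only and 1 was SOX2-only, beside SOX17FNV-only shares of 8.65% on the whole chromosome and 3.06% over all regions. They ranked among the 10 on this same count, so the share is no separate finding. Their shared regions gave a less even picture: the median ratio was 1.58 at Hs6st3, 1.37 at Gpc5 and 1.18 at Gpc6, and 2 of the 9 shared regions of Gpc6 had both SOX17FNV libraries below both SOX2 libraries.

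Of the 10 genes, Ptprg was the one at which the calls of the groups met. Ptprg, a receptor-type tyrosine phosphatase gene with 138 regions, had 105 and 81 calls against 81 and 60, so SOX17FNV library 2 and SOX2 library 1 were equal. It had 13 SOX17FNV-only and 4 SOX2-only regions, and with peaks restricted to a -log10 q of at least 5 its balance turned to 1 more SOX2-only region. Diaph3 (a formin that nucleates actin) had 68 and 56 against 43 and 24 calls. Vwa8 had 39 and 30 against 18 and 16, and Ipo5 (a nuclear import receptor) 26 and 16 against 15 and 10.

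The 5 genes at the other end had few regions or a narrow margin. Gfra2, a receptor for neurturin, had 3 SOX2-only and no SOX17FNV-only regions, with 4 and 1 calls in the SOX17FNV libraries, against 5 and 6 in the SOX2 libraries. Gm5798 was called in no SOX17FNV library and had 3 and 2 calls in the SOX2 libraries. Mipep and Tnfrsf10b, the genes of a mitochondrial peptidase and of a TRAIL receptor, had 2 SOX2-only regions each, and Dock5, a Rac exchange factor gene, had 3 against 2 SOX17FNV-only regions. Dock5 was tied with other genes at 1 more SOX2-only region and was taken because it had the most regions among them. The shared regions at Mipep and Dock5 were still higher in SOX17FNV libraries, with median ratios of 1.25 (11 regions) and 1.21 (15 regions).

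**Figure D4:**
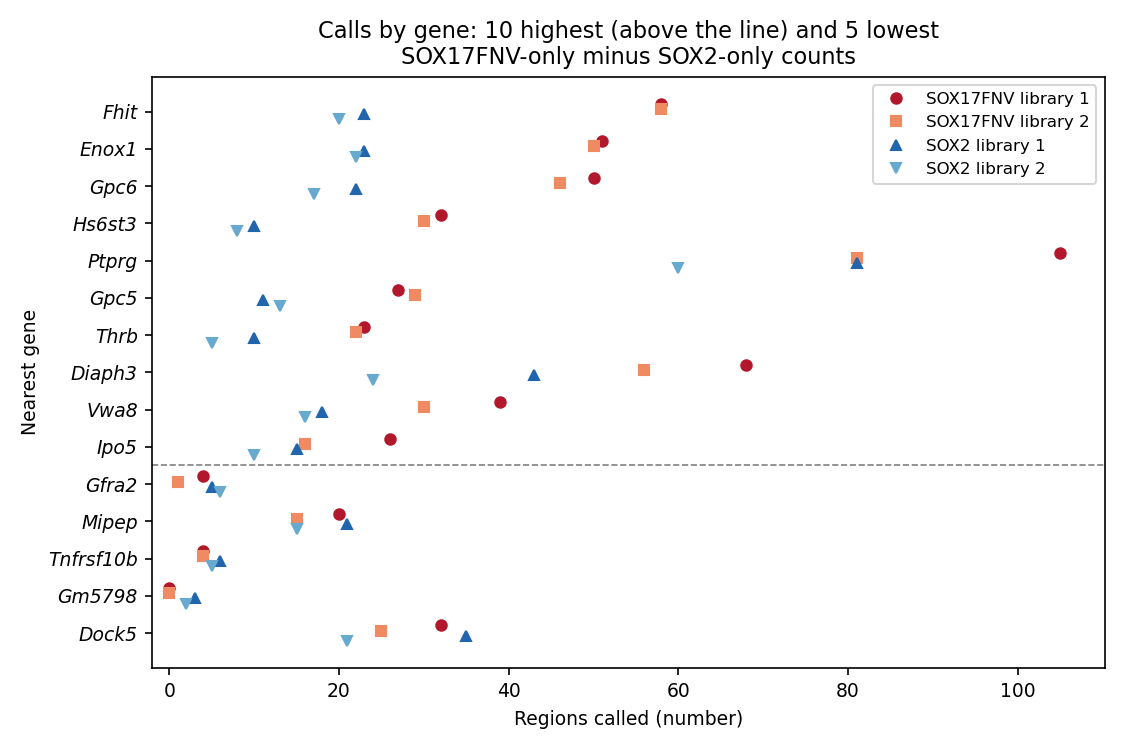
Number of regions called in each library (x axis) for the 10 genes with the highest and the 5 with the lowest SOX17FNV-only minus SOX2-only count (y axis). Fhit has 58 and 58 SOX17FNV calls against 23 and 20 in the SOX2 libraries, the libraries meet at Ptprg, and the lower genes have few calls or overlapping libraries.

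In the 13 lists of chromosome 14 genes grouped by role, 80 genes had a region, 77 had a shared region and 72 of these had a median pileup ratio above 1. The list medians, taken over all shared regions of a list and not over its genes, ran from 1.17 to 1.43. By distance from genes, the shared regions of the whole chromosome had medians from 1.27 to 1.31. The lists therefore lay near the chromosome and are not set apart by these values. The 2 lowest medians were those of the early embryo and pluripotency regulators (1.17, 51 regions of 7 genes) and of the endoderm and mesoderm transcription factors (1.18, 16 regions of 5 genes). In the first of these lists, Otx2 (0.94) and Bmp4 (0.96) held 10 and 11 of the 51 regions. The other 5 genes had medians from 1.32 to 1.38. The highest was that of the ion channels (1.43, 22 regions of 4 genes).

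Among the early embryo regulators, Klf5 and Otx2 differed. Klf5 encodes a Kruppel-like factor of the naive pluripotency network, and all of its 14 shared regions had a ratio above 1, with a median of 1.33. The region at its gene end (chr14:99298252-99299374) had pileups of 101 and 76 in the SOX17FNV libraries, against 70 and 78 in the SOX2 libraries. Relative to the other autosomes these were 3.06 and 3.17 against 2.00 and 2.79, so the groups did not overlap once each library was scaled. Only 2 of the 10 shared regions of Otx2 had a ratio above 1, and their median was 0.94. The Otx2 region at chr14:48651516-48652910 had pileups of 27 and 25 against 47 and 29. The medians used for scaling were 33 and 24 against 35 and 28. Once scaled, SOX17FNV library 2 lay just above SOX2 library 2 there, so the groups overlapped.

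Bmp4, the gene of a secreted ligand of the TGF-beta family, had a median ratio of 0.96, with 4 of its 11 shared regions above 1. Its regions went both ways. The region at chr14:46387114-46388221, inside the gene, had pileups of 64 and 45 against 46 and 43, a ratio of 1.34, while that at chr14:46410578-46411195, 19909 bp outside the gene, had 24 and 30 against 52 and 41, a ratio of 0.65. Its receptor gene Bmpr1a had a median of 1.32 over 5 shared regions, Hesx1 1.38 over 5, and Prmt5 1.36 and Wnt5a 1.33 over 3 each. Otx2 and Bmp4 lie within the bin from 45 to 50 Mb, which had a ratio of 1.20.

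The endoderm and mesoderm factors all had median ratios above 1. Gata4, a zinc finger factor of endoderm and heart, had a median of 1.19 over 5 shared regions, all above 1. Sox7, a relative of Sox17 in the same SOX subgroup, had 1.43 over 2 shared regions, with median pileups of 27.5 and 25.5 against 20 and 21. None of Gata4, Sox7 and Nkx2-6 had a group-specific region, and Ebf2 had 2 SOX17FNV-only regions.

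The neural factors Zic2, Zic5, Sox21 and Pou4f1 had medians of 1.27, 1.18, 1.39 and 1.25, over 1, 4, 2 and 2 shared regions. Of the nuclear receptor genes, Thrb stood at 1.47, Nr1d2 at 1.21 and Rarb at 1.14. Signalling genes ranged more widely: Mapk8, which encodes the kinase JNK1, had a median of 0.86 over 2 shared regions although its 3 group-specific regions were all SOX17FNV-only. Nalcn, a sodium leak channel gene, had 1.68 over 4 shared regions and 5 SOX17FNV-only regions. The tumour suppressor gene Rb1 had 0.95 over 3 shared regions, and Nrg3, a neuregulin gene, 0.87 over 3.

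Housekeeping genes, which are active in every cell, were also higher. All 11 on the list had a median ratio above 1, from 1.14 at Dad1 to 1.74 at Psmd6, and 29 of their 34 shared regions (85.3%) had both SOX17FNV libraries above both SOX2 libraries, beside 63.9% of the shared regions of the chromosome and 24.1% of all shared regions. The ribosomal protein gene Rps24 had median pileups of 62 and 70 against 59 and 44, and Tpt1, which encodes an abundant translationally controlled protein, had 61 and 50 against 49.5 and 42.5 over 8 shared regions. At Tpt1 all 8 regions had a ratio above 1, with a median of 1.27. Genes of muscle were not different in kind: Ldb3 had 1.47 over 3 shared regions and Myh6 1.18 over 1.

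The Mir17 cluster, a polycistronic microRNA locus that promotes proliferation, had a shared region at chr14:115041998-115042897, 774 bp from the Mir17 hairpin. It reached pileups of 70 and 61 in the SOX17FNV libraries, against 54 and 52 in the SOX2 libraries, a scaled ratio of 1.37. The groups did not overlap there. The miR-17 region thus lay near the chromosome's own ratio.

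The 5 strongest shared regions of the chromosome had ratios from 1.02 to 1.35, below and around that of the whole chromosome. The strongest by mean pileup was at the end of Pnp, the purine nucleoside phosphorylase gene, with pileups of 101 and 85 against 96 and 90 and a scaled ratio of 1.11. The next were near 1700001F09Rik (1.26), near Fermt2 (1.02), and at the ends of Ap3m1 (1.29) and Rab2b (1.35). At Rab2b, a small GTPase gene, the pileups were 108 and 85 against 86 and 73.

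The extremes of the ratio were sought among the 1572 shared regions with a pileup of at least 20 in every library. The 5 highest were near Fermt2 (2.89), inside Cacna1d (2.73), inside Farp1 (2.68), far from any gene (2.45) and inside Gpc6 (2.43). The Cacna1d region (chr14:30331013-30332597) had pileups of 62 and 56 against 24 and 24. The 5 lowest were inside Sh2d4b (0.53), near Atg14 (0.56), inside Fgf14 (0.56), far from any gene (0.62) and inside Rnaseh2b (0.64). The Sh2d4b region (chr14:40864561-40865938) had pileups of 39 and 28 against 75 and 63. Regions that were higher in SOX2 libraries therefore existed on the chromosome, with groups that did not overlap, but they were the minority counted above.

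The strongest group-specific regions were ranked by pileup, so their pileups were above the typical one by choice. The 5 strongest SOX17FNV-only regions were near Fermt2 (pileups 73 and 55, and 63 and 57), near the transketolase gene Tkt (55 and 48), inside Il3ra (57 and 44) and inside Il17rd (51 and 42). The 5 strongest SOX2-only regions were near Gng2 (49 and 34), inside Ptprg (40 and 38), near Zic5 (43 and 33), by Micu2 (33 and 41) and inside Il17rd (39 and 33). Fold enrichment did not follow this ranking. The 5 SOX17FNV-only regions had 1.51 to 2.81 in library 1 and 1.79 to 3.29 in library 2, against medians of 3.08 and 3.12 for that class on the chromosome. The 5 SOX2-only regions lay on both sides of their class medians, 3.09 and 2.74. Il17rd, whose product restrains FGF signalling, held one of each, at chr14:27070827-27071419 (SOX17FNV-only) and chr14:27065977-27066816 (SOX2-only). Its 9 shared regions had a median ratio of 1.48.

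One stretch beside Fermt2, which encodes the integrin activator kindlin-2, had a high background and was singled out after its values were seen. The shared region with the highest ratio (chr14:45439314-45439859) had pileups of 67 and 53 against 25 and 21. Its local background was 37.4 and 28.3 in the SOX17FNV libraries, against 10.2 and 8.99 in the SOX2 libraries. The scaled background ratio of 4.27 was the highest of the 56427 shared autosomal regions, and the next was 3.03. Fold enrichment there was 1.77 and 1.84 against 2.32 and 2.20, lower in the SOX17FNV libraries. Both SOX17FNV-only regions at its sides also had a fold enrichment near 2 or below, 2.08 and 2.04 at chr14:45437572-45438762 and 1.51 and 1.79 at chr14:45440106-45440383. The ranking covers shared regions only. The SOX17FNV-only region inside Il3ra also had high backgrounds, 34.7 and 22.7, and fold enrichments of 1.64 and 1.90.

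The high background was local. At the shared region by Gnpnat1, at -51.4 kb from that centre, the backgrounds were 14.1 and 10.5 against 11.7 and 9.04, and at the shared region at 57.9 kb they were 8.54 and 7.51 against 8.03 and 6.96. These values are not scaled. The median background at shared regions of the other autosomes was 6.26 and 4.82 against 6.87 and 6.96. Once scaled, both SOX17FNV libraries still lay above both SOX2 libraries at these 2 regions. Within the stretch, 1 strong shared region 5.60 kb from the centre had pileups of 99 and 72 against 91 and 94, nearly even, with backgrounds of 37.7 and 28.8 against 17.3 and 14.7. Of the 25 shared autosomal regions with the highest background ratio, 20 were on chromosome 14 and 4 of these were assigned to Fermt2. Whether the stretch has a different number of copies was not tested.

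**Figure D5:**
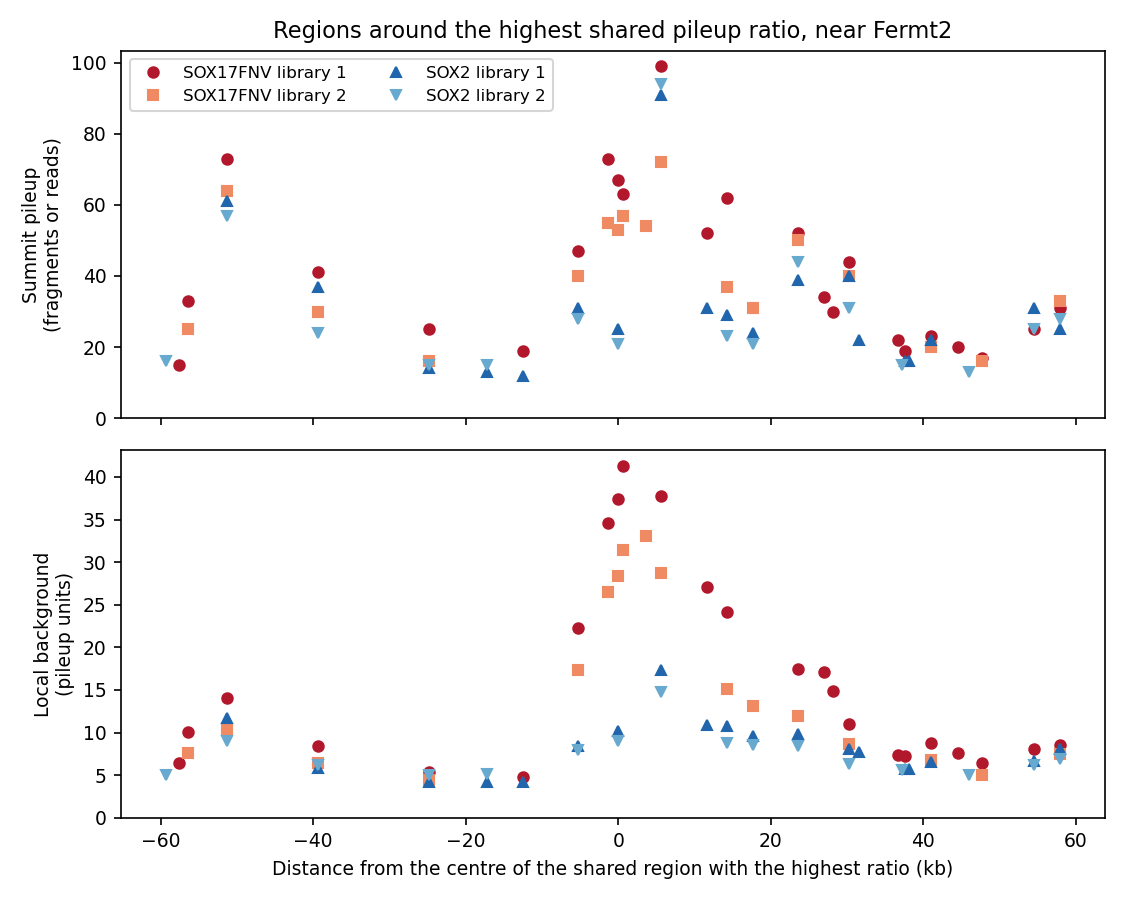
Summit pileup and local background (y axes, pileup units) of every region within about 60 kb of the shared region with the highest pileup ratio (x axis, distance in kb from its centre), with 1 symbol per library that called it. The SOX17FNV backgrounds climb to 41.3 and 33.1 near the centre while the SOX2 backgrounds stay at or below 17.3, and the unscaled values come closer together toward both sides.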

How the data were processed

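Peaks were called by the authors in each library, and the submitters' processing notes name Bowtie2, SAMtools, MACS2 and build mm10. Their versions, settings and filters, and whether reads were shifted, were not given in the sources used here. The lists have no header, so columns were read as MACS2 writes them: the deposited fold enrichment (a ratio), the deposited -log10 of p and q, the deposited score (10 times the -log10 q, rounded down, in at least 99.9% of lines) and the summit position. The lowest deposited -log10 q was 1.30.

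The whole-number pileup and local background of each summit were solved from fold and p. They matched the deposited -log10 p within 0.001 for 100% of summits, and the step was tested on simulated data. Peaks overlapping by 1 bp were merged, a region's pileup is its highest summit in a library, and regions were assigned to the nearest protein-coding gene span (RefSeq, GRCm38.p6) within 50 kb. Pileups were divided by the median of shared regions on the other autosomes. Group ratios are ratios of library means, and a region's or gene's ratio comes from mean log2 values. Python 3.11.15, pandas 2.3.3, NumPy 2.4.6 and SciPy 1.17.1 were used.

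The members and gene lists were chosen with earlier results of these data known. Named were the listed genes on the chromosome, the 10 genes with the highest and 5 with the lowest SOX17FNV-only minus SOX2-only count (ties settled by more regions), and the 5 strongest group-specific or shared regions and the 5 highest and lowest ratios. Alternatives covered peak thresholds, list lengths, merging, summaries, reference chromosomes and leaving out libraries. Foxo1 and Tcra were not on chromosome 14 in the table, and Bap1 and Apex1 had no assigned region. The values of 1 listed gene are not reported here.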

Additional observations from a re-analysis of the deposited data

How the results depend on the processing

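The SOX17FNV over SOX2 pileup ratio of chromosome 14 (1.29) stayed above 1 in all 16 values recomputed: 1.18 with regions called in at least 2 libraries, 1.26 and 1.22 at a -log10 q of at least 5 and 10, 1.27 for the strongest 50000 peaks, 1.27 for mean log2 values, and 1.301 to 1.32 with 1 library left out. The background ratio (1.48) was 1.34 with regions called in at least 2 libraries, 1.39 at a -log10 q of at least 10, 1.36 for mean log2 values and 1.39 near gene ends; it was 1.44 to 1.52 with 1 library left out. The fold enrichment ratio (0.965) stayed below 1 in all 14 values: 0.959 with regions called in at least 2 libraries, 0.937 and 0.918 at the 2 thresholds, 0.941 for the strongest 50000 peaks, 0.976 for lists of equal length, 0.942 near gene ends, 0.973 away from them and 0.964 to 0.992 with 1 library left out.

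SOX17FNV-only and SOX2-only counts (777 and 141) fell with fewer peaks, to 340 and 72 at a -log10 q of at least 5, 149 and 28 at 10, and 365 and 92 for the strongest 50000 peaks. They rose when 1 library was left out and fewer calls were required, to 959 to 2616 and 180 to 668. The SOX17FNV-only share of chromosome 14 over that of the other autosomes (3.12) was then 1.79 to 3.07. Genes with more SOX17FNV-only regions (237) were 95 at a -log10 q of at least 10 and 202 to 466 with 1 library left out. Genes with more SOX2-only regions (45) were 29 and 17 at the 2 thresholds and 19 to 180 with 1 library left out; without SOX2 library 2 the 2 gene counts were 202 and 180. Bins with a ratio above 1 (100%) were 91.7% with regions called in at least 2 libraries and 95.8% without SOX17FNV library 1 or SOX2 library 1.

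At single genes, 14 of 144 recomputed balances changed sign: Ptprg (-1 at both thresholds), Vwa8 (-1 at the stricter), Dock5 (1 and 2 at the thresholds, 4 for the strongest 50000 peaks), Mipep (1 for the strongest 50000 peaks and for equal lists) and Bmp4 (-1 for equal lists), and, with 1 library left out, Dock5 (-8 to 5), Mipep (-5 to 2), Otx2 (-3 to 2) and Bmp4 (-1 to 4). A balance that fell to 0 was not counted, and Klf5, at 0 from the start, could not change sign. At a -log10 q of at least 10, Fhit fell from 16 to 2, Enox1 from 10 to 5 and Thrb from 8 to 0. Gpc6 and Hs6st3 fell from 10 to 1 there, and Gpc5 from 8 to 1. With a replicate block, ratios within each replicate number, the pileup ratio was 1.29, the background ratio 1.48 and the fold ratio 0.965. The titles link these libraries only by number, and whether same-numbered libraries shared a batch is not stated. Their deviations correlated at 0.21 over the shared regions of chromosome 14. The block changed no direction. The cause of these changes was not tested beyond the fewer peaks or libraries used. Without read totals, depth is known only through the background.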
